A study of Mus musculus with 13 samples.

Results

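The V0 sector is the membrane-embedded part of the vacuolar-type proton ATPase (V-ATPase), and 10 genes that encode its subunits or its accessory proteins were followed here among the 52636 genes in the data. They were chosen by name as the V0 genes, so that the inducible subunit gene Atp6v0d2 could be set against the other 9. These 9 are called constitutive here as a group. The name is loose for Tcirg1, which like Atp6v0d2 is best known from osteoclasts and activated macrophages. All 10 passed the filter on low counts, which 17086 genes passed. Brain-resident myeloid cells, sorted as CD11b+CD45+Ccr2-Ly6g- from the cortex and hippocampus of single mice, were profiled by RNA-Seq. PS2APP;Trem2wt mice (n = 7, of which 2 were male) were compared with PS2APP;Trem2ko mice (n = 6, of which 1 was male), here called Trem2wt and Trem2ko and numbered within each genotype in the order of deposit. The mice were 14 to 15 months old with no treatment given in the labels, and the question was what the loss of Trem2, a lipid-sensing receptor of microglia, does to these cells in a brain with amyloid plaques. Every mouse carried the PS2APP transgenes, which encode mutant human presenilin 2 and amyloid precursor protein, so no mouse without amyloid pathology entered the comparison. The Trem2tm1(KOMP)Vlcg null allele arose on C57BL/6N and was bred into PS2APP mice on C57BL/6J from Trem2 heterozygotes. The sort kept a small share of perivascular macrophages beside the microglia.

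The V-ATPase pumps protons into lysosomes, endosomes and the resorption space under osteoclasts. Its cytosolic V1 sector splits ATP, and its V0 sector carries the protons: a ring of c-type subunits turns against the large a subunit, while the d subunit sits on the ring as the seat of the central stalk. Most V0 proteins have a single broadly used gene, but the a and d subunits come in isoforms, among which Tcirg1 (the a3 isoform) and Atp6v0d2 (the d2 isoform) are best known from osteoclasts and activated macrophages.

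Many lysosomal genes carry an E-box near their start that can be bound by factors of the MiT/TFE family, such as Tfeb. RefSeq promoters of GRCm38.p6, from 250 bases before to 50 after a gene's start, were matched for 8 of the 10 V0 genes, and the entries missing were Atp6v0d2 and Atp6v0a2. The hexamer CACGTG, which reads the same on both strands, was found in 3 of the 8 genes (37.5%), against 8.09% of the 27025 genes with a promoter in the table. It was in 1 of the 9 V1 genes matched (11.1%). The 4 occurrences are shown because they are the sequence feature that some constitutive V0 genes share. Each is given as 30 bases on the gene's strand with the hexamer in capitals, and those of Atp6v0b share part of their sequence. The gene's start is here that of the RefSeq promoter. It can differ from the start in the GENCODE annotation used for gene coordinates, which for Atp6v0e is chr17:26663231.
Atp6v0b, chr4:117887348-117887377, minus strand, hexamer beginning at -36 from the gene's start: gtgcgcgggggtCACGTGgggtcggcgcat
Atp6v0b, chr4:117887330-117887359, minus strand, hexamer beginning at -18: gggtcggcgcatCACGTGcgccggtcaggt
Atp6v0d1, chr8:105566050-105566079, minus strand, hexamer beginning at -3: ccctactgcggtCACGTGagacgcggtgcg
Atp6v0e, chr17:26676387-26676416, plus strand, hexamer beginning at 4: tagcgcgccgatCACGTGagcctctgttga
Each of the 4 was preceded by a T. The longer word TCACGTG, searched on both strands and a part of the hexamer matches above, was thus in 3 of 8 V0 genes, against 4.29% of all genes. The hexamer flanked by GT before it and AC after it, the full palindrome known from lysosomal genes, was in 0 of the 8 V0 genes and 0 of the 9 V1 genes, against 0.370% of all genes. Such matches describe letters in these windows and not binding.

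Total counts per library ranged from 26120961 to 114857155 (median 35201380) in Trem2wt and from 41567025 to 120569609 (median 55371726) in Trem2ko. Trem2 itself, the deleted gene, ranged from 818 to 1244 nRPKM (reads per kilobase scaled by library size factors, the level used throughout) in the 7 Trem2wt mice and from 0.393 to 2.29 nRPKM in the 6 Trem2ko mice, so each library matched its label. The 10 microglia markers summed to between 14672 and 18213 nRPKM in Trem2wt and between 15370 and 17216 nRPKM in Trem2ko. Border macrophage markers summed to between 13.7 and 37.2 nRPKM and between 23.5 and 53.1 nRPKM, respectively, and monocyte markers to at most 21.7 and 18.5 nRPKM. Neuron markers summed to at most 10.8 and 10.6 nRPKM, astrocyte markers to at most 69.9 and 76.1 nRPKM, and oligodendrocyte markers to at most 73.8 and 66.3 nRPKM. Of these marker genes only Cx3cr1, a microglial chemokine receptor gene, passed the test (log2 fold change -0.49, SE 0.09, adjusted p = 0.0067 by edgeR's quasi-likelihood test). Slc1a3, the most abundant astrocyte marker here, had 46.9 nRPKM in Trem2wt and 57.8 nRPKM in Trem2ko. It narrowly missed the threshold (log2 fold change 0.30, adjusted p = 0.0533 by the same test), with 5 of 6 Trem2ko mice above every Trem2wt mouse.

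Atp6v0d2 was the V0 gene that differed between the genotypes: its transcript was 28.5-fold lower in Trem2ko cells, while the other 9 V0 genes stayed within a log2 fold change of -0.20 to 0.32. By the test used throughout, with calls made at adjusted p ≤ 0.05, 1 of the 10 was lower in Trem2ko and 0 were higher (1 at an unadjusted p under 0.05). Of all genes tested, 1.53% were lower, 0.503% were higher and 2.04% were called in either direction, and 0.691% were called lower by at least 2-fold. At an unadjusted p under 0.05 by edgeR's quasi-likelihood test, 1291 of the 17086 genes were lower and 1246 were higher. Counts at an unadjusted p in the lists below are to be read beside these. Without Atp6v0d2 the median log2 fold change of the other 9 was 0.000627, beside 0.00389 for all 17086 genes. Atp6v0d2 is one of the genes that the study labelled by name in a plot drawn from these same libraries, so that its result here is not independent evidence. In bulk RNA, fewer cells that express a gene and less of its RNA per cell cannot be told apart.

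**Figure D1:**
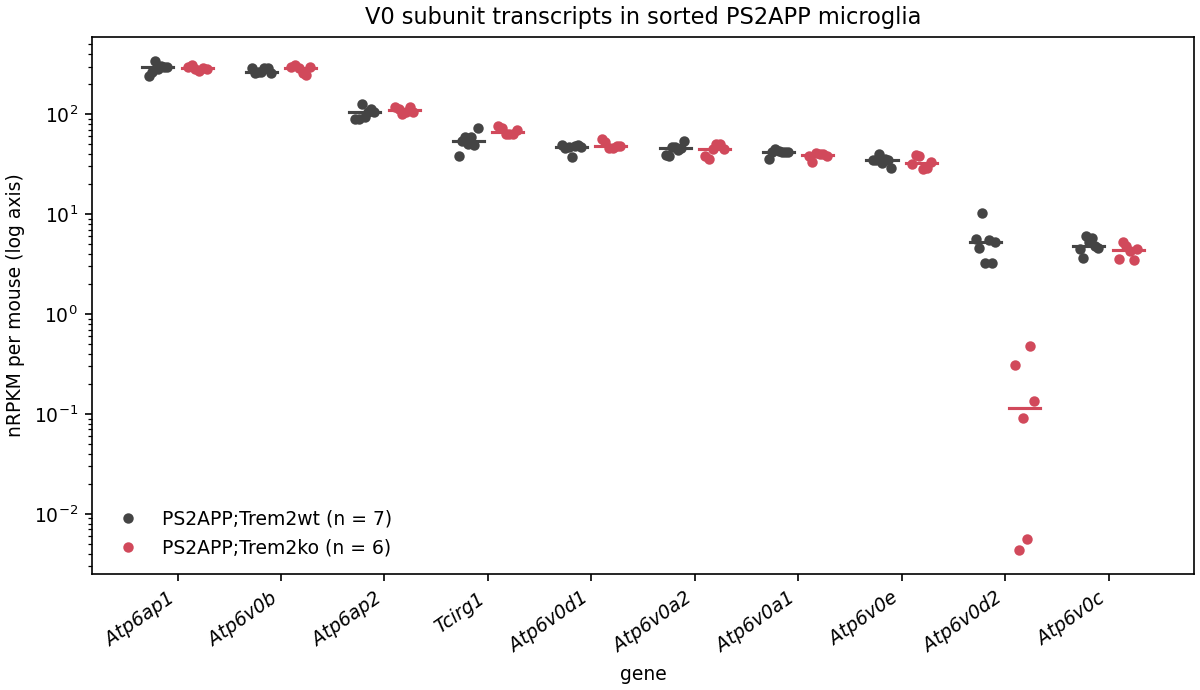
Level of each V0 gene in every mouse, in nRPKM on a log axis, with Trem2wt mice (n = 7) and Trem2ko mice (n = 6) side by side; points are mice and bars are medians. Only for Atp6v0d2 do the genotypes lie apart, with 3.27 to 10.2 nRPKM in Trem2wt and 0.00437 to 0.478 nRPKM in Trem2ko.

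Atp6v0d2 (ENSMUSG00000028238, chr4:19876841-19922605 on the minus strand, GRCm38) encodes the d subunit isoform that osteoclasts need to fuse. Its level in the 7 Trem2wt mice was 3.27 nRPKM at the lowest, 5.28 at the median and 10.2 at the highest (mean 5.40 ± 2.32 SD). In the 6 Trem2ko mice the lowest was 0.00437 nRPKM, the median 0.114 and the highest 0.478 (mean 0.171 ± 0.188 SD). The genotypes did not overlap, and 1.22% of all genes tested had every Trem2ko mouse below every Trem2wt mouse. On the log2 scale the fold change was -4.83 (SE 0.63, 95% interval -6.17 to -3.50), with an adjusted p of 0.000478 by edgeR's quasi-likelihood test, and the interval spans 11.3- to 71.9-fold. By size of decrease it ranked 11 among all genes tested.

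The residual transcript in Trem2ko cells was uneven from mouse to mouse. Trem2ko mice 2 and 4 had 1 count each, for which the exact Poisson 95% interval is 0.0253 to 5.57 counts and covers counting error only. Mice 3 and 6 had 14 and 22 counts, and mice 1 and 5 had 141 and 202. The latter pair were also the most deeply sequenced Trem2ko libraries, at 120569609 and 116906312 total counts, and kept the highest levels per library size (0.311 and 0.478 nRPKM). Their residual Trem2 was not the highest: 0.393 and 0.410 nRPKM, against 2.29 nRPKM in mouse 4, where Atp6v0d2 had 1 count. Whether depth or residual Trem2 had a part in this spread was not tested.

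Variation among Trem2wt mice was also wide. The coefficient of variation of Atp6v0d2 was 43.0%, whereas the other 9 V0 genes had 5.46% to 19.2%. Among 2767 genes within 1.5-fold of its level the median was 13.3%, and 98.8% of them varied less. A single mouse, Trem2wt mouse 3, stood highest at 10.2 nRPKM; without it the Trem2wt mean was 4.61 ± 1.09 nRPKM (SD, n = 6), the coefficient of variation 23.8% and the log2 fold change -4.62. By sex, the Trem2wt males (4.61 and 5.28 nRPKM) lay within the range of the 5 Trem2wt females, and the Trem2ko male (0.478 nRPKM) lay above the 5 Trem2ko females (0.00437 to 0.311 nRPKM).

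Neutrophil markers moved in the same direction as Atp6v0d2. Of the 6 in the list 4 were tested, and these had negative log2 fold changes with a median of -1.60. By edgeR's quasi-likelihood test 0 passed and 2 had an unadjusted p under 0.05, while the defining markers Ly6g and Retnlg were near 0 in every mouse. The list summed to between 13.1 and 246 nRPKM in Trem2wt and between 0.143 and 40.3 nRPKM in Trem2ko. Trem2wt mouse 2, with the most neutrophil transcript (246 nRPKM), had 4.61 nRPKM of Atp6v0d2, and Trem2wt mouse 4, with the least of its genotype (13.1 nRPKM), had 3.28, near the lowest. The Trem2ko mouse with the most neutrophil transcript (mouse 5, 40.3 nRPKM) also had the most Atp6v0d2 of its genotype, at 0.478 nRPKM. Neither genotype kept such an order throughout. Trem2wt mouse 6, at 92.4 nRPKM of neutrophil transcript, had the lowest Atp6v0d2 of its genotype (3.27 nRPKM). Trem2ko mouse 6, with the least neutrophil transcript (0.143 nRPKM), had 0.136 nRPKM of Atp6v0d2, and Trem2ko mouse 1 (10.7 nRPKM) had 0.311 nRPKM. The part of neutrophil transcript in the difference between genotypes was not tested.

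Atp6v0d1 (ENSMUSG00000013160, chr8:105524465-105566047, minus strand) encodes the broadly made d1 isoform. Its level was 37.6, 47.4 and 49.0 nRPKM in the lowest, median and highest Trem2wt mouse and 46.3, 48.1 and 56.0 nRPKM in Trem2ko. The groups overlapped, and the difference was 0.10 on the log2 scale (SE 0.07, adjusted p = 0.580 by edgeR's quasi-likelihood test). Atp6v0d2 and Atp6v0d1 shared no 50-base word with any other gene in the annotated transcripts, so reads of this length can tell them apart. In every mouse d1 was the more abundant isoform per length: Atp6v0d2 made up 10.3% ± 3.6 of the d transcript in Trem2wt (SD, n = 7; range 6.26% to 17.6%) and 0.339% ± 0.372 in Trem2ko (SD, n = 6; range 0.00834% to 0.977%). The d genes summed to 51.7 ± 5.3 nRPKM in Trem2wt and 49.7 ± 3.9 nRPKM in Trem2ko, with overlapping ranges.

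**Figure D2:**
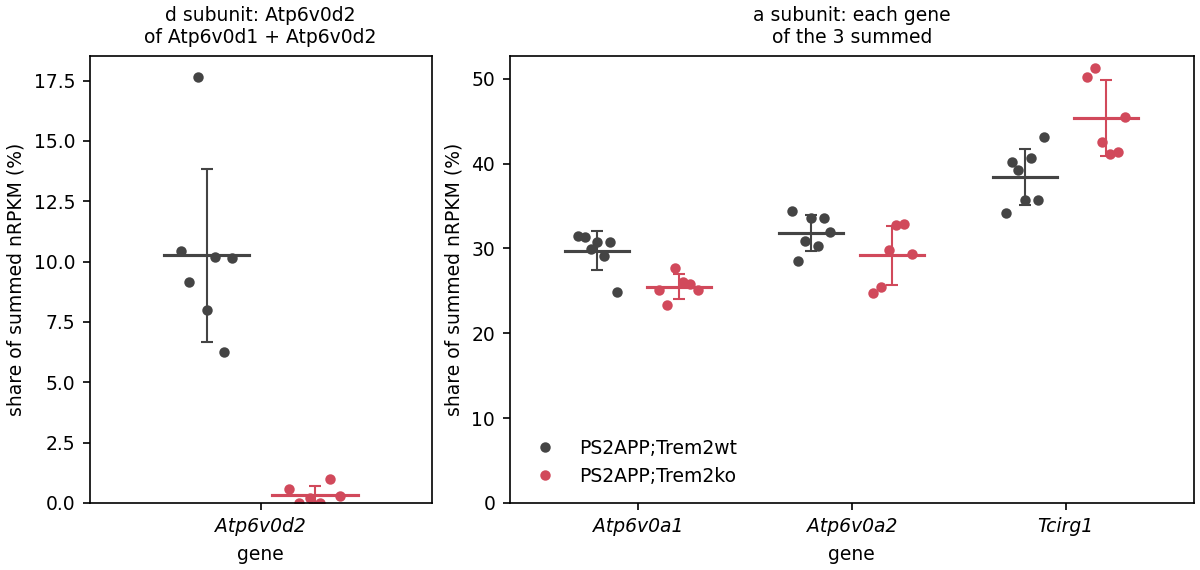
Share of each isoform gene in the summed nRPKM of its subunit, in percent, per mouse, with the mean and SD; the left panel shows Atp6v0d2 in the d subunit and the right panel the 3 a subunit genes. Atp6v0d2 falls from 10.3% to 0.339% between Trem2wt and Trem2ko, whereas Tcirg1 goes from 38.4% to 45.3% with overlap.

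The ratio of Atp6v0d2 to each other V0 gene was formed within each mouse, where sequencing depth and scaling cancel. The mean log2 ratio to Atp6v0d1 was -3.19 ± 0.51 (SD) in Trem2wt and -9.69 ± 2.90 in Trem2ko, a difference of -6.50. Against the other 8 genes the difference in mean log2 ratio ran from -6.75 (Tcirg1) to -6.21 (Atp6v0c). Each of the 9 gave p = 0.000583 when every regrouping of the mice was enumerated (exact permutation test, two-sided), the smallest p that 7 against 6 mice allow, and an adjusted p of 0.000777 over 12 ratios. All 9 ratios share Atp6v0d2, whose genotypes lay apart, so they restate the same difference and are not separate results. They also make up 9 of the 12 ratios in the adjustment. For this reason the adjusted p of the ratios of Tcirg1 to Atp6v0a1 and Atp6v0a2, given below, lies close to the unadjusted p. The sizes of these differences lean on the mice with 1 count. With Atp6v0d2 set to 3 counts in those mice the difference to Atp6v0d1 was -5.97, and with 0.1 nRPKM added to both genes it was -4.64. With 1 nRPKM added it was -2.49, with the same adjusted p of 0.000777.

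The a subunit holds the proton channels and directs the pump to its membrane, and 3 of its isoform genes were transcribed at like levels. Atp6v0a1 (ENSMUSG00000019302), the isoform prominent in neurons, had 35.6, 41.9 and 45.2 nRPKM in the lowest, median and highest Trem2wt mouse and 32.9, 39.2 and 41.3 nRPKM in Trem2ko. Atp6v0a2 (ENSMUSG00000038023), the isoform of the Golgi and early endosomes, had 38.5, 45.7 and 53.5 nRPKM in Trem2wt and 35.8, 44.8 and 50.7 nRPKM in Trem2ko. Neither passed the test and the genotypes overlapped for both: Atp6v0a1 had log2 fold change -0.12 (SE 0.07, adjusted p = 0.460) and Atp6v0a2 had -0.03 (SE 0.10, adjusted p = 0.941) by edgeR's quasi-likelihood test.

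Tcirg1 (ENSMUSG00000001750, chr19:3896050-3907133, minus strand), the lysosomal and osteoclast a3 gene whose loss causes osteopetrosis, was the V0 gene with the next largest difference, and its direction was opposite to that of Atp6v0d2. Its level was 38.5, 54.3 and 72.2 nRPKM in the lowest, median and highest Trem2wt mouse (mean 54.5 ± 10.5 SD) and 63.3, 66.9 and 77.0 nRPKM in Trem2ko (mean 68.3 ± 5.7 SD). The groups overlapped, with 2 of 6 Trem2ko mice above every Trem2wt mouse. The log2 fold change of 0.32 (SE 0.11, 95% interval 0.08 to 0.57, unadjusted p = 0.0130) did not pass edgeR's quasi-likelihood test after adjustment (adjusted p = 0.186). Without Trem2wt mouse 7, a male at 72.2 nRPKM, the log2 fold change was 0.40 and the adjusted p 0.0495 by the same test. Among females alone, where this mouse is also absent, the log2 fold change was 0.44 and the adjusted p 0.0915. Over all alternatives the adjusted p ran from 0.0495 to 0.336.

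Within a mouse, Tcirg1 stood higher against Atp6v0a1 in Trem2ko than in Trem2wt. Its log2 ratio to Atp6v0a1 was 0.37 ± 0.23 (SD, n = 7) in Trem2wt and 0.83 ± 0.21 (SD, n = 6) in Trem2ko, which differed by 0.46 (exact permutation test, two-sided, p = 0.00524, adjusted p = 0.00629 over 12 ratios), although the ranges overlapped. Its ratio to Atp6v0a2 differed by 0.37 (exact permutation p = 0.0268, adjusted p = 0.0292). That result was lost when any of 6 mice was left out (Trem2wt mice 1, 4 and 6, and Trem2ko mice 1, 2 and 6), with differences from 0.30 and adjusted p between 0.0179 and 0.0638 over all alternatives. The ratio of Atp6v0a2 to Atp6v0a1 differed by 0.09 (exact permutation p = 0.311, adjusted p = 0.311). The share of Tcirg1 in the summed a transcript was 38.4% ± 3.3 in Trem2wt and 45.3% ± 4.5 in Trem2ko, while Atp6v0a1 had 29.7% ± 2.3 and 25.5% ± 1.4. The sum itself was 141 ± 17 nRPKM in Trem2wt and 151 ± 5 nRPKM in Trem2ko.

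The proton ring is built from the c subunit (Atp6v0c) and the related c'' subunit (Atp6v0b). Atp6v0b (ENSMUSG00000033379) was among the most abundant V0 transcripts, with 256, 267 and 290 nRPKM in the lowest, median and highest Trem2wt mouse and 246, 291 and 309 nRPKM in Trem2ko. Its genotypes overlapped and were 0.04 apart on the log2 scale (SE 0.06, adjusted p = 0.815 by edgeR's quasi-likelihood test). Atp6v0c (ENSMUSG00000024121, chr17:24163866-24169702, minus strand) was listed far lower, at 3.61, 4.78 and 6.09 nRPKM in Trem2wt and 3.44, 4.40 and 5.30 nRPKM in Trem2ko (log2 fold change -0.20, SE 0.14, adjusted p = 0.557). This level is uncertain, because 10.8% of the 50-base words of its transcripts occur elsewhere, nearly all in the processed pseudogene Atp6v0c-ps2. The pseudogene, of whose own words 88.0% occur in Atp6v0c, was credited with 12.8 nRPKM in Trem2wt and 11.5 nRPKM in Trem2ko (log2 fold change -0.15, adjusted p = 0.612 by edgeR's quasi-likelihood test), so that counts of the c subunit may be split between them. Smaller shares of words occurred in other genes for Atp6v0b (8.59%) and Atp6v0a2 (8.35%).

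The small e subunit gene Atp6v0e (ENSMUSG00000015575) had 29.0, 34.8 and 40.2 nRPKM in the lowest, median and highest Trem2wt mouse and 28.3, 32.4 and 39.1 nRPKM in Trem2ko, with overlap (log2 fold change -0.06, SE 0.09, adjusted p = 0.828 by edgeR's quasi-likelihood test). Atp6ap1 (ENSMUSG00000019087), an accessory protein that aids assembly of V0, had 239, 298 and 340 nRPKM in Trem2wt and 270, 289 and 312 nRPKM in Trem2ko. Atp6ap2 (ENSMUSG00000031007), the (pro)renin receptor, had 89.6, 105 and 128 nRPKM in Trem2wt and 99.4, 109 and 119 nRPKM in Trem2ko. For both accessory genes the Trem2ko range lay inside the Trem2wt range. Their log2 fold changes were 0.00 (SE 0.08, adjusted p = 0.998) and 0.08 (SE 0.09, adjusted p = 0.723) by edgeR's quasi-likelihood test.

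A p that misses the threshold does not show equality, so the intervals of the 9 constitutive genes bound what could have been missed. They ran from -29.1% at the lowest (Atp6v0c) to 48.0% at the highest (Tcirg1), and 8 of the 9 held 0. The summed V0 transcript was between 826 and 985 nRPKM in Trem2wt and between 866 and 972 nRPKM in Trem2ko.

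In order of level per length, Atp6ap1 (mean 289 nRPKM) and Atp6v0b (273) led in Trem2wt and overlapped. They were followed by Atp6ap2 (104), which overlapped neither neighbour. Tcirg1 (54.5), Atp6v0d1 (46.3), Atp6v0a2 (44.8), Atp6v0a1 (41.7) and Atp6v0e (34.6) came next, each overlapping the one after it. Atp6v0d2 (5.40) and Atp6v0c (4.94) were last, overlapped, and stood in that order in 4 of 7 mice. The place of Atp6v0c is uncertain, because its counts may be split with the pseudogene Atp6v0c-ps2. In Trem2ko the order of the first 8 genes was the same, but Tcirg1 no longer overlapped Atp6v0d1, and Atp6v0c lay above Atp6v0d2 in 6 of 6 mice without overlap.

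Among the remaining V-ATPase genes, the catalytic V1 sector showed no change that passed the test. Of 13 V1 genes, 10 were tested, 0 were lower and 0 were higher, with a median log2 fold change of 0.03; 1 of them had an unadjusted p under 0.05 by edgeR's quasi-likelihood test. Voom with limma and DESeq2 likewise called 0. The lowest value was -0.09 for Atp6v1b2, a B subunit gene (74.3 nRPKM in Trem2wt and 70.1 in Trem2ko). The highest was 0.45 for Atp6v1g2, the neuronal G subunit isoform (1.69 and 2.31 nRPKM, adjusted p = 0.212). Summed, V1 transcript was between 316 and 406 nRPKM in Trem2wt and between 352 and 391 nRPKM in Trem2ko. The V0 paralogs Atp6v0e2 and Rnasek did not pass either, at log2 fold changes of 0.17 and -0.06, and the kidney isoform gene Atp6v0a4 was below the filter (0.0120 nRPKM in Trem2wt and 0.00787 in Trem2ko).

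**Figure D3:**
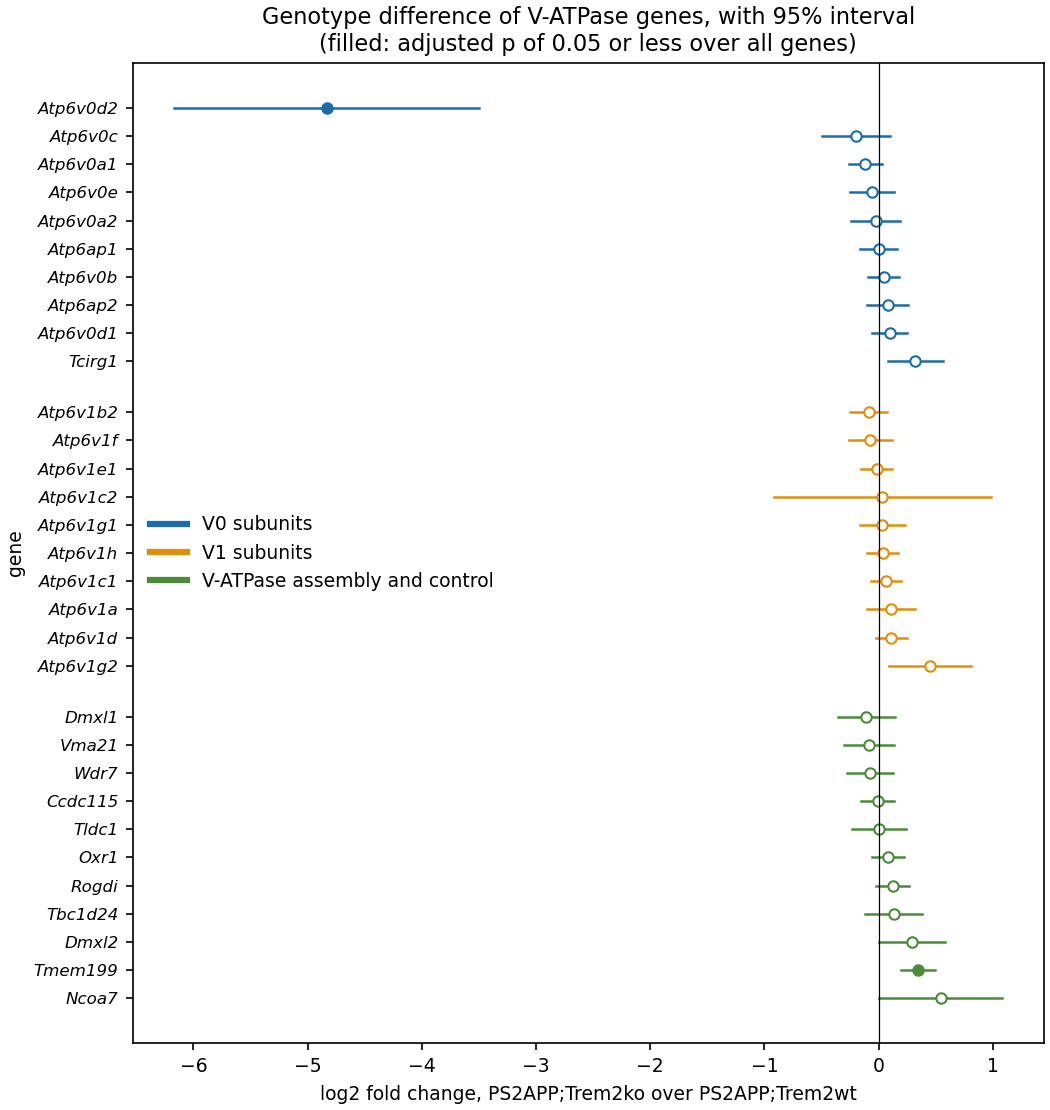
Log2 fold change (Trem2ko over Trem2wt) of each tested V0, V1 and assembly or control gene, with its 95% interval; filled points are genes called at adjusted p ≤ 0.05. Atp6v0d2 at -4.83 stands alone on the left, and Tmem199 at 0.34 is the other filled point.

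Of 12 genes for assembly and control of the pump, 11 were tested, 0 were lower and 1 was higher. The gene was Tmem199, the mammalian counterpart of a yeast V0 assembly factor, with 27.4 ± 1.5 nRPKM in Trem2wt (SD, n = 7) and 34.9 ± 3.4 nRPKM in Trem2ko (SD, n = 6). Every Trem2ko mouse lay above every Trem2wt mouse, as was the case for 0.421% of all genes tested. On the log2 scale the rise was 0.34 (SE 0.07, adjusted p = 0.0149 by edgeR's quasi-likelihood test), and among females alone it was 0.36 with an adjusted p of 0.0541, the highest over its alternatives, of which the lowest was 0.000162. The other assembly factors of V0 did not pass: Vma21 had a log2 fold change of -0.08 and Ccdc115, the partner of Tmem199, of -0.01. Dmxl2 (0.29) and Ncoa7 (0.55) had an unadjusted p under 0.05 and did not pass after adjustment (adjusted p = 0.333 and 0.329).

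Because Atp6v0d2 is best known from osteoclasts, 10 osteoclast genes were read beside it. Of the 6 tested, 1 was lower and 0 were higher (0 at an unadjusted p under 0.05), with a median log2 fold change of -0.42. The gene was Dcstamp, the fusion receptor of osteoclasts and macrophages, at 5.73 ± 2.32 nRPKM in Trem2wt and 0.112 ± 0.083 nRPKM in Trem2ko without overlap. Nfatc1, the master transcription factor of osteoclasts, was at 29.0 and 27.3 nRPKM (log2 fold change -0.09, adjusted p = 0.595 by edgeR's quasi-likelihood test). Itgb3, the integrin β3 gene, had 20.1 and 17.5 nRPKM (adjusted p = 0.373). Acp5 and Mmp9, which encode osteoclast enzymes, had 0.284 and 0.170 nRPKM and 0.275 and 0.172 nRPKM, and neither passed (adjusted p = 0.673 and 0.756). Car2 was nearly level at 2.14 and 2.12 nRPKM (log2 fold change -0.01, adjusted p = 0.985 by edgeR's quasi-likelihood test).

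The genes whose pattern over the 13 mice was most like that of Atp6v0d2 were found by the root mean square distance between log2 CPM values, each centred on the gene's mean. They were Dkk2, a secreted regulator of Wnt signalling (distance 1.12), Ctnna3, a catenin of cell junctions (1.44), and Spp1, which encodes osteopontin (1.59). Next came Tmem163, a zinc transporter (1.63), and Cspg4, the NG2 proteoglycan (1.66). Like Atp6v0d2, all 5 were lower in every Trem2ko mouse than in any Trem2wt mouse, which the measure favours. Tmem163 fell from 2.13 ± 0.83 to 0.170 ± 0.171 nRPKM (log2 fold change -3.57, SE 0.55, adjusted p = 0.00212 by edgeR's quasi-likelihood test). Among Trem2ko mice these genes shared only part of an order. Mice 1 and 5, the highest for Atp6v0d2, were the highest for Tmem163 (0.441 and 0.317 nRPKM) and Dkk2 (0.135 and 0.263 nRPKM). Mouse 1 was also the highest of the 6 Trem2ko mice for Spp1 and Cspg4, but mouse 5 was not the next. For Spp1 mouse 5 (8.86 nRPKM) was below mice 2 and 4 (11.9 and 10.7 nRPKM). For Cspg4 mouse 5 (0.0592 nRPKM) was below mouse 2 (0.145 nRPKM). Dcstamp, which was not among the 5, was lowest in mouse 1, at 1 count. Ctnna3 had 0 counts in all 6 Trem2ko mice, which allows up to 3 counts per library, so its distance depends on the prior count. Dcstamp ranked 10 (1.76). When the distance was taken on log2(nRPKM + 0.1), Dcstamp ranked 2 and Ctnna3 fell to rank 8. The nearest other V0 gene was Atp6v0a1, at rank 3385.

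**Figure D4:**
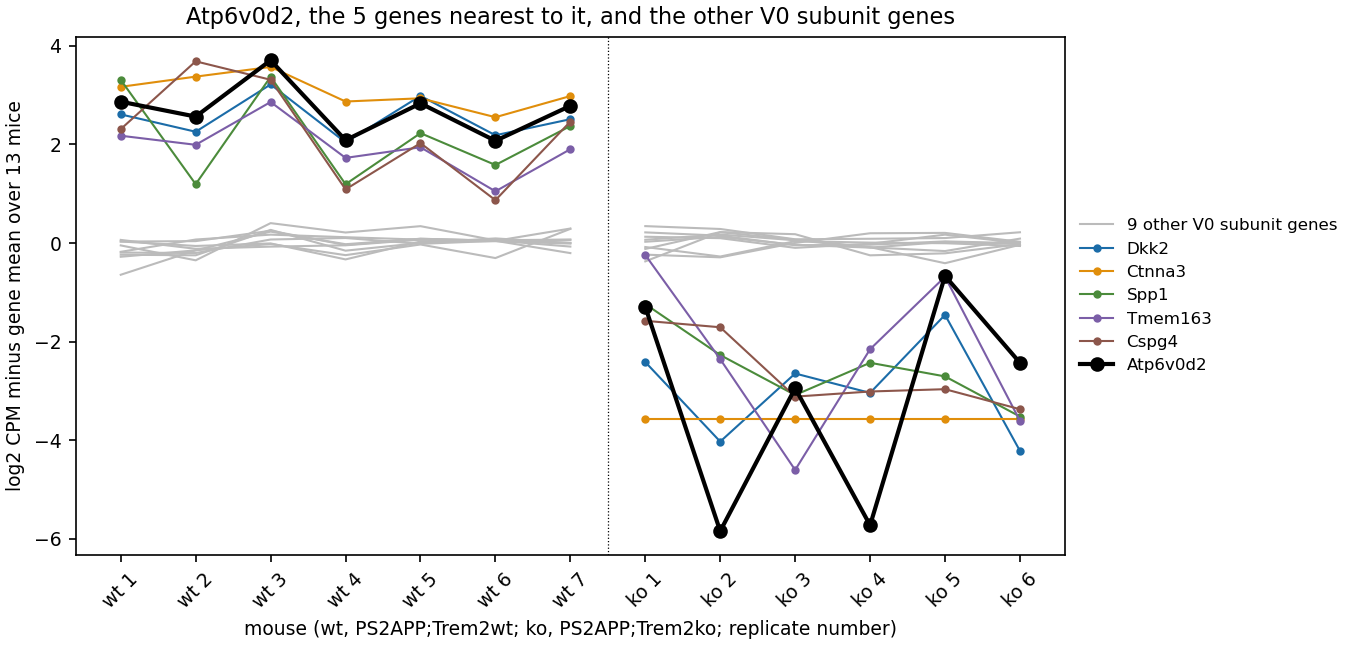
Log2 CPM minus the gene's mean over the 13 mice, per mouse, for Atp6v0d2 (black), the 5 genes nearest to it (colours) and the 9 other V0 genes (grey); lines only join a gene's points within a genotype. The grey genes stay near 0 in every mouse, whereas Atp6v0d2 and its nearest genes lie above 0 in all 7 Trem2wt mice and below 0 in all 6 Trem2ko mice.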

How the data were processed

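RNA of sorted cells was made into SMART-seq libraries and sequenced as single-end 50-base reads. The authors deposited per-gene counts from GSNAP alignments to GRCm38 beside nRPKM, an RPKM value scaled by DESeq size factors; the counting program and its use of strand are not given in the sources used here. Counts of 13 mice, 1 file each, were tested with edgeR 4.0.16 in R 4.3.3 (TMM, filterByExpr by genotype, quasi-likelihood test, Benjamini-Hochberg adjustment over 17086 genes, called at 0.05), a procedure tested on simulated data. Where the study named voom with limma, that served as an alternative (limma 3.58.1), as did DESeq2 1.42.0, RLE scaling, other filters, sex, females alone, log2(nRPKM + 0.1) or + 1, and leaving out each mouse. Ratios were tested by exact permutation over all 1716 splits, enumerated in Python 3.11.15 with numpy 2.4.6. In 36 same-genotype pairs, counts differed by more than sampling noise (chi-square per gene at least 19.6). Samples were grouped by their genotype label. Named were the 10 V0 genes, list genes that passed the test or set a list's range, and the 5 genes nearest to Atp6v0d2; some further list genes were named after their values were seen. Members and lists were chosen with earlier results of these data known. Coordinates are from GENCODE M21 and promoters from RefSeq. Each sample is labelled with a single genotype and sex, and p-values measure the spread between these mice. Sequencing depth left all V0 genes except Atp6v0d2 in Trem2ko with at least 175 counts per mouse.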

Additional observations from a re-analysis of the deposited data

Results flagged for a closer look

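Of 44 groups of values (levels of the V0 genes and the ratios between them, in each genotype), 4 held a mouse far from the others of its genotype by Dixon's criterion, which flags about 1 in 20 groups by chance. Trem2wt mouse 3 had 10.2 nRPKM of Atp6v0d2, against 3.27 to 5.69 nRPKM in the other Trem2wt mice. Trem2wt mouse 4 had 37.6 nRPKM of Atp6v0d1, against 45.9 to 49.0 nRPKM in the others. For Atp6v0a1, Trem2wt mouse 1 had 35.6 nRPKM, against 41.6 to 45.2 nRPKM, and Trem2ko mouse 2 had 32.9 nRPKM, against 38.4 to 41.3 nRPKM.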

How the results depend on the processing

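The count of lower V0 genes was 1 in all 22 alternatives, and V1 counts were 0 in both directions. The log2 fold change of Atp6v0d2 ran from -5.78 to -2.39 over the other settings and from -5.45 to -4.59 when a mouse was left out, with adjusted p from 4.4e-08 to 0.00249. The count of higher V0 genes was 0, with a range of 0 to 1 when a mouse was left out; the 1 was Tcirg1 without Trem2wt mouse 7. Without 1 mouse, the log2 ratio of Tcirg1 to Atp6v0a2 differed by 0.30 to 0.43. Direction turned only for uncalled genes with small changes. Among females alone the log2 fold change was -0.0194 for Atp6ap1, -0.0261 for Atp6v1g1 and -0.0272 for Atp6v1h, and with sex as a covariate -0.00277 for Atp6ap1. Leaving out 1 mouse gave -0.0699 to 0.0290 for Atp6v0a2, -0.0421 to 0.0406 for Atp6ap1, -0.228 to 0.293 for Atp6v1c2, -0.0591 to 0.00138 for Atp6v1e1 and -0.0235 to 0.0702 for Atp6v1g1. The ratio of Atp6v0d2 to Atp6v0d1 differed by -7.12 to -2.49 over the alternatives. The causes were not tested. Of the 5 genes nearest to Atp6v0d2, 4 were shared with a ranking on log2(nRPKM + 0.1). No paired analysis was possible because the labels give no replicate numbers or sorting pairs. Setting Atp6v0d2 to 3 counts was chosen after seeing the data. The lowest counts limit the residual Atp6v0d2 level in Trem2ko mice.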

Other observations

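The lysosomal partners of the pump did not pass the test between genotypes. All 10 acidification partners were tested, and 0 were lower and 0 higher by edgeR's quasi-likelihood test, with 1 at an unadjusted p under 0.05. That gene was Mcoln1, the lysosomal cation channel, at 37.0 ± 4.7 nRPKM in Trem2wt (SD, n = 7) and 43.6 ± 1.4 nRPKM in Trem2ko (SD, n = 6), a log2 fold change of 0.23 (adjusted p = 0.175). Clcn7 and Ostm1, the lysosomal chloride-proton exchanger and its partner, had log2 fold changes of -0.07 and 0.01. Of the MiT/TFE factors, 3 of 4 were tested: Tfeb was at 8.74 and 8.43 nRPKM, Tfe3 at 38.0 and 36.9 nRPKM, and Mitf at 3.28 and 4.08 nRPKM (log2 fold change 0.32, adjusted p = 0.346), and 0 of the 3 were called or had an unadjusted p under 0.05.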
